A study of Mus musculus with 21 samples.

Results

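Gene expression in long-term haematopoietic stem cells (LT-HSC), which can rebuild the whole blood system, was compared between mice in which both main retinoid X receptors were targeted and their floxed controls. The groups compared are 6 of the 21 libraries of the series, namely the LT-HSC libraries of batch 1: 3 labelled VaviCre+Rxrabfl/fl, called knockouts here, and 3 labelled Rxrabfl/fl, called floxed controls. Both groups carry floxed alleles of Rxra and Rxrb, and the Cre recombinase, which Vav1 gene elements drive in blood cells, is carried by the knockouts alone. The effects of Cre and of receptor loss can therefore not be told apart within these 6 libraries. Each library was made from cells sorted from the bone marrow of pooled animals, whose number, age and sex the labels do not give, so the p-values measure the spread between pools. For comparison, batch 1 also holds 3 knockout and 3 floxed libraries of multipotent progenitors (MPP, sorted as MPP3/MPP4), and batch 2 holds LT-HSC labelled Vav1Cre+Rxrabfl/fl and Vav1Cre+WT, 3 libraries each, in which the controls carry Cre and no floxed allele. Gene tests were fitted over the 12 libraries of batch 1, so that the spread behind each p-value is shared with the 6 MPP libraries.

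RXR proteins, the retinoid X receptors, belong to the nuclear receptor family and bind DNA in pairs with partner receptors. The partners include the retinoic acid receptors (RAR), the liver X receptors (LXR), which sense oxysterols and switch on cholesterol export, and the fatty acid sensors of the PPAR family. RAR signalling is known for holding haematopoietic stem cells in a resting state.

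Values start from deposited TPM, which express transcripts per gene length as parts of a fixed total. A rescaled scale is used beside them because the libraries differ in composition, and the values of many genes are given rescaled only. On the deposited scale 1 gene identifier without a symbol, ENSMUSG00000089855, took 51.84% of floxed control 2, against 21.94% and 24.16% of floxed controls 1 and 3 and 15.64% to 20.82% of the knockouts. For the rescaled values each library was divided by its size factor from the median of ratios, 0.617 to 0.951 in floxed controls and 1.06 to 1.38 in knockouts. The number of genes reaching 1 TPM was 13923 to 14870 in knockouts and 12455 to 13249 in floxed controls. Log-scale correlations between libraries were 0.969 to 0.981 among knockouts and 0.955 to 0.969 among floxed controls, and knockout 1 was as close to floxed control 1 (0.977) as to knockout 2 (0.977). Read depth is unknown, since TPM do not keep it.

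The targeted genes were examined first. Rxra (chromosome 2, 27676445 to 27763319, mm10) stood at 5.17, 3.87 and 2.37 TPM in floxed controls 1 to 3 and at 3.17, 3.38 and 2.88 TPM in knockouts 1 to 3, and the groups overlapped (exact two-sided permutation p = 0.6, rescaled p = 0.2). A junction that joins the exons on either side of an Rxra exon (chromosome 2, 27741203 to 27748612) had a share of 0, 0.1 and 0 of the competing junctions in the floxed controls and of 0.938 in knockout 1, with no value in knockouts 2 and 3. The check of the deletion by this junction thus covers 1 of the 3 knockout libraries. Rxrb (chromosome 17, 34031812 to 34038403) stood at 14.9, 7.52 and 14.0 TPM in floxed controls and 9.30, 9.85 and 12.6 TPM in knockouts on the deposited scale (exact p = 0.6). Rescaled, it stood at 15.7, 12.2 and 15.8 against 8.74, 7.16 and 9.75 TPM, so that every knockout lay below every control (exact p = 0.1, the smallest that 3 against 3 can give). The fit over all genes called this fall at a log2 change of -0.71 (limma, Benjamini-Hochberg adjusted p = 0.0289).

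The sort was checked with cell type markers. All 12 LT-HSC markers, such as Procr, Slamf1 and Fgd5, had a group mean of at least 1 TPM in both groups, and their summed level was 577 to 966 TPM in floxed controls and 1100 to 1340 TPM in knockouts. Markers of other cells were not evenly spread over the groups. The 11 neutrophil markers summed to 64.0 to 83.1 TPM in floxed controls and to 166, 432 and 1420 TPM in knockouts 1 to 3, with 7 and 10 of them at a group mean of 1 TPM or more. The 10 B cell markers summed to 10.7 to 217 and 367 to 893 TPM, with 2 and 3 members at that level and Vpreb3 at 0 in every control. The 13 mast cell, basophil and eosinophil markers summed to 5.07 to 7.75 and 26.4 to 69.7 TPM, with 2 and 7 members at that level, and Epx and Prg3 were at 0 in every control. The 14 erythroid markers summed to 344 to 916 TPM in floxed controls, highest in control 3, and to 338 to 534 TPM in knockouts. Monocytic markers (104 to 190 and 263 to 306 TPM) and endothelial and stromal markers (12.9 to 20.3 and 30.8 to 43.2 TPM, Col3a1 at 0 in all) were also higher in knockouts, and the 9 T and NK cell markers overlapped (9.13 to 27.1 and 18.5 to 31.9 TPM, Gzma and Klrd1 at 0 in all). These sums are of deposited TPM, a scale on which 44.6% of all genes tested rose and their median log2 change was 0.52. The sums were not rescaled, so a higher sum in knockouts does not by itself show more cells of a type. On the rescaled scale the gene test called 3 of 12 LT-HSC markers higher and 8 of 14 erythroid markers lower (median log2 change -1.43). Also higher were 1 of 8 monocytic and 1 of 5 endothelial and stromal markers tested. So were 1 of 9 mast cell, basophil and eosinophil markers and 1 of 8 megakaryocyte markers, while 1 of 6 MPP markers was lower. The test called 0 of 9 neutrophil markers (limma, 6 at an unadjusted p under 0.05, median 1.6). It called 0 of 7 B cell markers (1 at an unadjusted p under 0.05, median 0.21). Of all genes tested 2.54% were called higher and 2.16% lower, and 27.0% had an unadjusted limma p under 0.05. In bulk libraries more cells of a type and more RNA per cell cannot be told apart. The part of these other cells in the results below was not tested.

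Of 14839 genes tested, 377 rose (2.54%) and 321 fell (2.16%) in knockout LT-HSC on the rescaled scale, 4.7% in all, and 4010 (27.0%) had an unadjusted p under 0.05. The counts of list members below stand against these shares of 2.54% and 2.16%. On the deposited scale 6614 rose (44.6%) and 86 fell (0.58%), 45.2% in all, with the median of all genes at a log2 change of 0.52, against 0 after rescaling. All 377 genes that rose also rose on the deposited scale, while 77 of the 321 that fell also fell there (0.519% of genes tested) and 0 of them rose. All 3 knockouts lay above all 3 floxed controls for 13.4% of genes and below them for 11.9% after rescaling, and for 48.2% and 0.559% as deposited. The genes that rose were expressed at lower levels than those that fell, with medians of 5.53 and 13.6 rescaled TPM. Of the genes that rose 81.2% matched a RefSeq symbol, and 77.1% of the matched ones are protein coding. Among the genes that fell these shares were 96.9% and 98.4%. With the spread taken from the 6 LT-HSC libraries alone 30 of the 698 genes passed. The count also leaned on single libraries: 345 genes passed without floxed control 2, 1630 without knockout 1, 119 without knockout 2 and 21 without knockout 3, and without floxed control 1 the 638 that passed included 402 of the 698.

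A set of 19 genes passed in the fit of all libraries and in each of the 6 fits that left out 1 LT-HSC library, 11 lower and 8 higher in knockouts. Of these 17 passed on the deposited scale, and 17 passed in the fit of the LT-HSC libraries alone, where Hoxb6 (adjusted p = 0.0711) and Fcho1 (0.0774) did not. Those that fell were Gda, Cd69, Klf9, Gm15344, Utp14b, Mylip, Nfkbid, Nfkbia, Acsl3, Sqstm1 and Fcho1. Those that rose were Sva, Olfr632, Gm16587, Tgfbi, Clca3a1, Ffar2, Hoxb6 and Dhrs3. Sva reached 1 TPM in knockout libraries only, so it entered the test through the group where it is high. So did Hoxb6, which among the other libraries of the fit reached 1 TPM in LT-HSC floxed control 1 alone. Sqstm1 (adjusted p = 0.0579) and Fcho1 (0.312) did not pass on the deposited scale. Utp14b, a ribosome biogenesis gene, lies at the start of Acsl3 (both begin at position 78657825 of chromosome 1), so reads of the overlapping pair may not be separable.

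**Figure D1:**
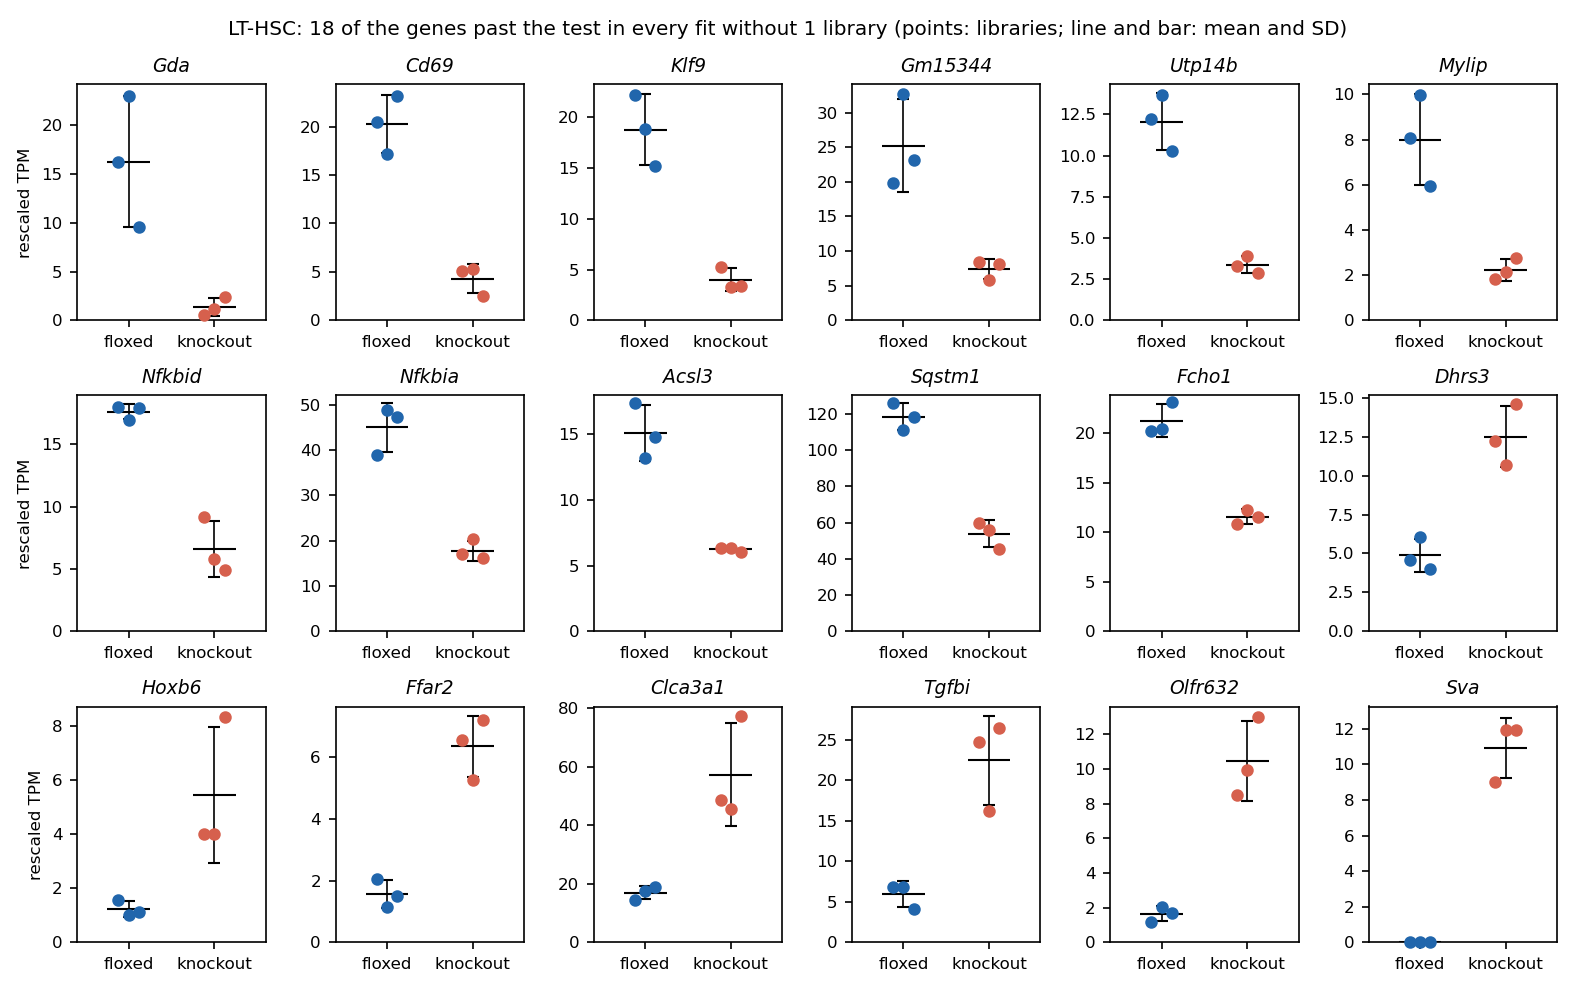
Rescaled TPM in each LT-HSC library of 18 of the 19 genes that passed in every fit leaving out 1 library (points: libraries, line and bar: mean and SD, n = 3 per group). In every panel the 3 knockouts lie wholly below or wholly above the 3 floxed controls, from Gda at 9.55 to 23.0 against 0.518 to 2.35 rescaled TPM to Sva at 0 against 8.99 to 11.9.

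Klf9 encodes a zinc finger repressor that steroid and thyroid hormone receptors induce. It stood at 22.2, 18.9 and 15.2 rescaled TPM in floxed controls and at 5.31, 3.33 and 3.36 in knockouts (21.1, 11.6 and 13.5 against 5.65, 4.59 and 4.34 as deposited). No knockout came near a control on either scale, and the log2 change was -1.99 (SE 0.19, limma adjusted p = 6.4e-04), between -2.17 and -1.87 without any 1 LT-HSC library. Gda (chromosome 19, 21391307 to 21472661) encodes guanine deaminase, an enzyme of purine breakdown. It stood at 16.2, 23.0 and 9.55 rescaled TPM in floxed controls and at 0.518, 1.17 and 2.35 in knockouts, the steepest fall of the set (log2 change -2.87, SE 0.34, adjusted p = 0.00227). Cd69 (chromosome 6, 129267324 to 129275375) encodes a surface protein of activated lymphocytes that keeps cells in tissues. It stood at 20.5, 17.2 and 23.2 rescaled TPM against 5.12, 5.27 and 2.57, a log2 change of -2.04 (SE 0.24, adjusted p = 0.00227).

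Among genes of the retinoic acid pathway, those that limit or read the signal changed in both directions. Dhrs3, which turns retinaldehyde back into retinol and so restrains retinoic acid synthesis, stood at 4.59, 6.08 and 4.03 rescaled TPM in floxed controls and 12.2, 10.7 and 14.6 in knockouts (log2 change 1.20, SE 0.16, adjusted p = 0.00522). Cyp26b1, whose enzyme destroys retinoic acid, stood at 3.61, 5.63 and 1.27 against 0.0408, 0.0201 and 0.175 rescaled TPM (log2 change -1.93, SE 0.29, adjusted p = 0.00969). It is nearly absent from every knockout and varies among controls. Cyp26b1 reached 1 TPM in the 3 floxed LT-HSC libraries and in no other library of the fit, so it entered the test through the group where it is high, and its p supports nothing beyond these values. Of the 9 members tested of the list of retinoic acid synthesis and target genes 1 rose and 2 fell, the other being Rarb, and the list's median log2 change was -0.07. Aldh1a1, which makes retinoic acid, stood at 113, 99 and 93.4 against 131, 87.5 and 101 rescaled TPM and the groups overlapped (log2 change 0.05, adjusted p = 0.905, and 0.66 as deposited). Cyp26b1 was tested in 3 of the 6 fits that left out a library, not in those without a floxed control, and lost its call without knockout 3. Dhrs3 kept its call in all 6.

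Rarb encodes the retinoic acid receptor that its own ligand induces, through a repeated element in its promoter. Its upstream sequence is shown because that element is the textbook site of an RXR and RAR pair, with the direct repeat in capitals (RefSeq, GRCm38.p6, chr14:16575477-16575726, minus strand, 250 bases up to the start).
Rarb: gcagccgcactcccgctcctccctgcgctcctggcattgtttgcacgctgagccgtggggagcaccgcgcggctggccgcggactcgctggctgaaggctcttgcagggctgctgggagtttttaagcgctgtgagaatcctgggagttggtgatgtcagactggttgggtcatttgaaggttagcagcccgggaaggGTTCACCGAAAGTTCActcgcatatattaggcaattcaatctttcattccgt
The capitals mark a match to GTTCA, 6 bases of any kind and GTTCA again, searched on both strands, whose first base lies 52 bases before the start. The motif occurs in 25 of 32851 promoter windows of 250 bases before to 50 bases after a start (0.0761%). Rarb stood at 3.39, 5.8 and 2.06 rescaled TPM in floxed controls and at 1.46, 1.08 and 1.06 in knockouts, low levels that did not overlap (log2 change -1.04, SE 0.23, adjusted p = 0.0336). On the deposited scale the values were 3.22, 3.58 and 1.83 against 1.56, 1.48 and 1.37 TPM (adjusted p = 0.0241). The call was lost without floxed control 1 or 2, without knockout 2 or 3 and in the LT-HSC libraries alone (adjusted p = 0.118). Rarb was the only member of 11 RXR partner receptors tested that passed, with the list's median at -0.14. Rara, the main partner in blood cells, stood at 6.09, 5.73 and 6.68 against 7.88, 3.99 and 4.42 rescaled TPM (log2 change -0.20, adjusted p = 0.544).

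Some LXR targets and genes of sterol synthesis fell on the rescaled scale. Mylip (chromosome 13, 45389742 to 45411940), an LXR-induced ubiquitin ligase of lipid uptake, stood at 8.09, 9.98 and 5.93 rescaled TPM in floxed controls and at 1.83, 2.13 and 2.77 in knockouts (log2 change -1.46, SE 0.20, adjusted p = 0.00522). It belongs to the set that holds without any single library. Of 14 LXR targets tested 4 fell and 0 rose, with a median log2 change of -0.50 (0.09 as deposited, where all genes lie at 0.52). The others that fell were Fasn, the fatty acid synthase gene, at 13.8, 24.1 and 14.7 against 7.98, 8.78 and 7.59 rescaled TPM, the desaturase gene Scd2 (log2 change -0.68, adjusted p = 0.0243) and Arl4c (-0.78, 0.0173). Abca1, the cholesterol exporter and best known LXR target, stood at 5.40, 9.18 and 3.30 against 2.45, 2.40 and 2.25 rescaled TPM and missed the threshold (adjusted p = 0.0533). Of the 4 LXR targets 2 passed without knockout 2, 1 (Mylip) without knockout 3, 1 on the deposited scale and 1 in the LT-HSC libraries alone.

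Of 21 genes of cholesterol synthesis and its control tested, 5 fell and 0 rose, with a median of -0.29 (0.17 as deposited). Insig1, which holds the sterol sensor in place, stood at 19.2, 14.5 and 17.1 against 9.35, 6.68 and 9.29 rescaled TPM (log2 change -0.93, adjusted p = 0.0145). The synthesis genes Idi1 and Cyp51 fell by 0.80 and 0.54 on the log2 scale. The 5 calls fell to 1 without knockout 2 or floxed control 3 and to 0 without knockout 3, in the LT-HSC libraries alone and on the deposited scale, where Cyp51 lay at 0.01. Acsl3, which activates fatty acids for lipid droplets, held in every fit without 1 library, at 17.4, 13.2 and 14.8 against 6.39, 6.36 and 6.07 rescaled TPM (log2 change -1.14, SE 0.14, adjusted p = 0.00236). Of 14 PPAR targets tested 1 fell, the mitochondrial carrier gene Ucp2, at 236, 241 and 294 against 156, 145 and 129 rescaled TPM (log2 change -0.84, adjusted p = 0.0128), and the call was lost without knockout 3 and in the LT-HSC libraries alone. Of all genes tested 2.16% fell.

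The NF-kB response is the alarm programme of the Rel family of transcription factors, and part of its genes fell in knockout LT-HSC. Of 29 members tested 12 fell and 0 rose, and the list's median log2 change was -0.53 (-0.03 as deposited). The genes that fell include the brakes of the pathway and its factors. Nfkbia encodes the inhibitor IkBa, which NF-kB itself induces. It stood at 38.9, 48.8 and 47.2 rescaled TPM in floxed controls and at 17, 20.3 and 16.1 in knockouts, and on the deposited scale at 37.0, 30.1 and 41.8 against 18.1, 27.9 and 20.8 TPM. The groups were separate on both scales (log2 change -1.29, SE 0.15, adjusted p = 0.00227, and -0.69 with 0.0164 as deposited). Nfkbid, which encodes a nuclear member of the same inhibitor family and is not on the list, stood at 18, 16.9 and 17.9 against 9.18, 5.8 and 4.94 rescaled TPM (log2 change -1.32, SE 0.17, adjusted p = 0.00334). Tnfaip3, the ubiquitin-editing enzyme A20, stood at 38.7, 53.8 and 52.7 against 14.9, 18.5 and 11.7 rescaled TPM (log2 change -1.63, adjusted p = 0.00718). The factor genes Rel, Nfkb2 and Relb fell by 1.02, 1.01 and 0.67, and the survival gene Birc3 and the A20 partner Tnip1 by 0.64 and 0.50, while on the deposited scale Tnip1 lay at 0.07. On the deposited scale 4 of the 12 passed, 7 without floxed control 1, 5 without floxed control 2 and 3 without knockout 2, and without knockout 3 Nfkbia and Cd69 were the 2 that passed. Relb lost its call in each of the 6 fits. In the LT-HSC libraries alone 3 of the 12 passed.

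Upstream sequences are shown for the kB site, the DNA element that Rel family pairs bind. They are those of the fallen members Nfkbia, Rel and Nfkb2 and of Nfkbid, which also fell and is not on the list. Capitals mark matches to GGGA, NNTN and CC in a row (N for any base) on either strand (RefSeq, GRCm38.p6, each 5′ to 3′ along the gene). The stretches are chr12:55492648-55492897 (minus) for Nfkbia, chr11:23771012-23771101 (minus) for Rel, chr19:46304658-46304736 (plus) for Nfkb2 and chr7:30422156-30422229 (plus) for Nfkbid.
Nfkbia: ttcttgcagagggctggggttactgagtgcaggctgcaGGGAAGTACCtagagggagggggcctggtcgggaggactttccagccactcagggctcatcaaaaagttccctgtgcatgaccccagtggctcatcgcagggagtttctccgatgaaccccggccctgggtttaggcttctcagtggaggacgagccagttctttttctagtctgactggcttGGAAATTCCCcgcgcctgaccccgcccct
Rel: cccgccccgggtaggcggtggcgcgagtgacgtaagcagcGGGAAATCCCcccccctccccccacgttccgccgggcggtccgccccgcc
Nfkb2: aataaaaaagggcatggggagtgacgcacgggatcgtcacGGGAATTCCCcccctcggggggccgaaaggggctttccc
Nfkbid: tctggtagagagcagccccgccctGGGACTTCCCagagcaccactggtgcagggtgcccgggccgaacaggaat
In Nfkbia the motif begins 212 and 29 bases before the start, in Rel 92, in Nfkb2 39 and in Nfkbid 226. Of the 12 members that fell 10 had a promoter entry, and 5 of these hold the motif (Nfkb2, Nfkbia, Rel, Tnfaip3 and Tnip1). Of the 17 members that did not pass 11 had an entry and 3 hold it, and 4.01% of all 32851 promoter windows do. These matches describe letters only, and binding was not measured.

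Other genes of acute activation also fell. Of 28 immediate early genes tested 5 fell and 0 rose (median -0.61, and -0.04 as deposited). Klf2 and Klf6, which restrain activation and guide migration of blood cells, were the most abundant of the 5. Klf2 stood at 296, 304 and 219 against 140, 113 and 82.3 rescaled TPM (log2 change -1.30, adjusted p = 0.0353), and Klf6 at 391, 461 and 358 against 200, 197 and 110 (-1.30, adjusted p = 0.0375). Klf10, a gene induced by TGF-beta, fell by 1.05 (adjusted p = 0.0092), Maff by 1.26 and Junb by 0.93. Fos, a gene of the first response to many stimuli, stood at 1190, 798 and 863 against 1050, 833 and 542 rescaled TPM, and the groups overlapped (log2 change -0.27, adjusted p = 0.567, and 0.35 as deposited). Of the Klf transcription factor family 6 of 14 tested members fell and 0 rose, with Klf9 the lowest p. Of the 5 immediate early calls 1 stood without floxed control 1, floxed control 2 or knockout 2, 0 without knockout 3 or in the LT-HSC libraries alone and 1 on the deposited scale.

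The unfolded protein response adjusts the folding capacity of the endoplasmic reticulum. Of 28 of its genes tested 6 fell and 0 rose (median -0.48, and 0.12 as deposited). Hspa5, the chaperone BiP and the central gauge of this response, stood at 848, 936 and 885 rescaled TPM in floxed controls and at 504, 538 and 416 in knockouts (log2 change -0.88, SE 0.18, adjusted p = 0.0234). The transcription factor genes Ddit3, Atf4 and Xbp1 fell by 1.00, 1.06 and 0.46, and Herpud1 and Manf by 0.71 and 0.69. On the deposited scale none of the 6 passed (Xbp1 at 0.14), nor did any without knockout 2 or knockout 3 or in the LT-HSC libraries alone. The Hspa5 upstream stretch (chr2:34771985-34772083, plus strand) carries the element that stress factors bind, a match to CCAAT, 9 bases of any kind and CCACG, searched on both strands and in capitals, 65 bases before the start, present in 39 of 32851 windows (0.119%).
Hspa5: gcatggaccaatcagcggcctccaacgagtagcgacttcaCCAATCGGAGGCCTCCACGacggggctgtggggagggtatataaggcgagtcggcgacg
Of the 5 members that fell and have an entry, Hspa5 alone holds this element, and of the 19 with an entry that did not pass 6 do. Sqstm1, which encodes the autophagy receptor p62, is a stress gene of the 19-gene set. It stood at 126, 111 and 118 against 60.0, 55.9 and 45.6 rescaled TPM (log2 change -1.13, SE 0.15, adjusted p = 0.00475). Of 35 genes of autophagy and lysosome tested 1 rose, Vmp1 (log2 change 1.02, adjusted p = 0.0390), and 2 fell, Sqstm1 and Tfe3 (-0.69, adjusted p = 0.0349). Vmp1 lost its call without floxed control 1 or 3 or knockout 2 or 3, and Tfe3 without floxed control 3 or knockout 2 or 3.

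**Figure D2:**
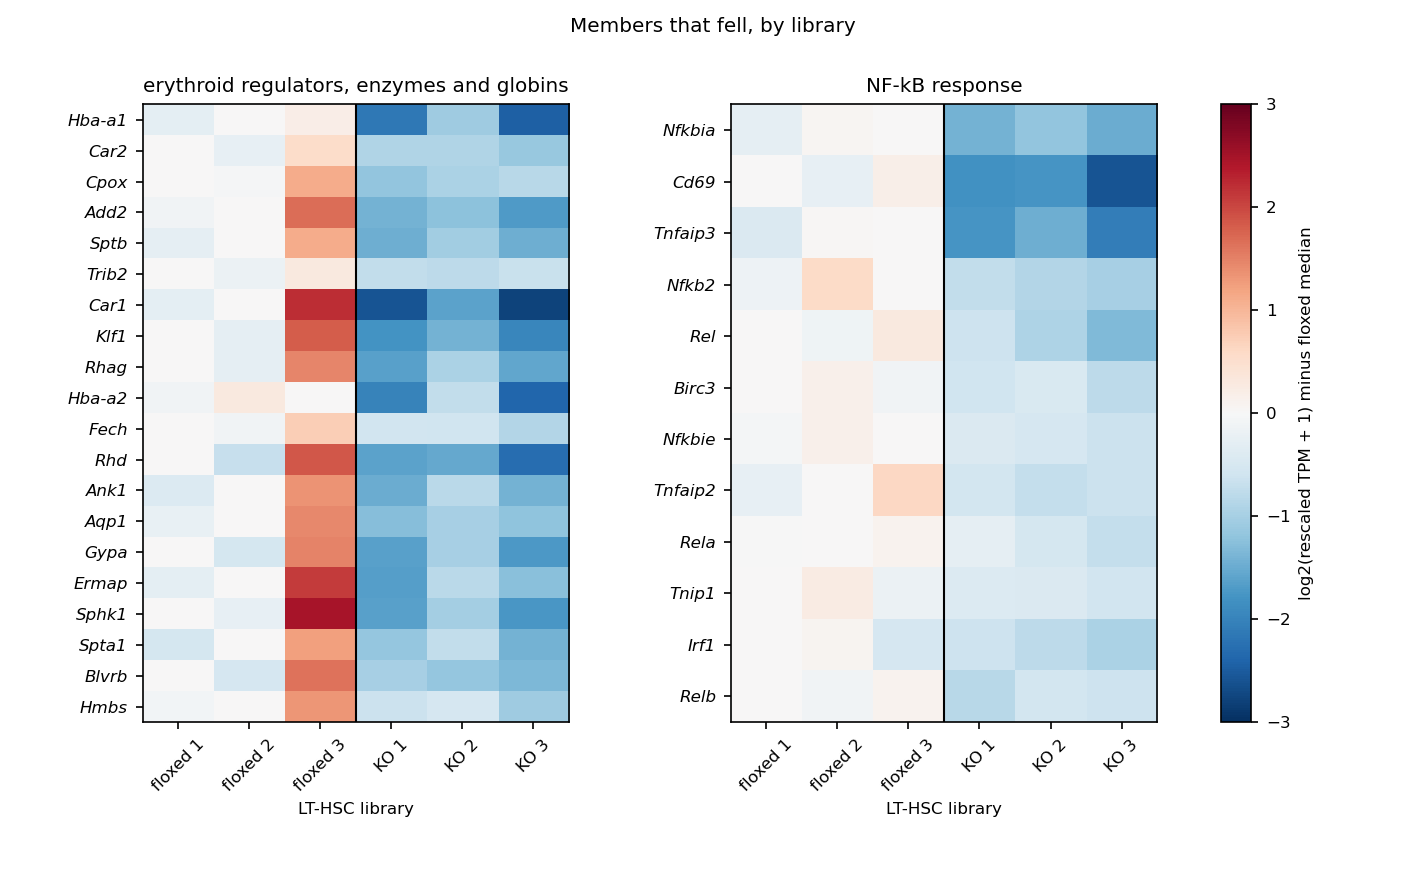
Log2(rescaled TPM + 1) of each list member that fell, minus the median of the 3 floxed controls, in each of the 6 LT-HSC libraries (red: above that median, blue: below). The members shown were chosen because they fell, so all 3 knockouts lie below that median by choice. In the erythroid list floxed control 3 stands above the other controls in 19 of 20 genes.

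Erythroid genes made up the largest block of falls among the lists. Of 38 regulators, enzymes and globins tested 20 fell and 0 rose, and the median log2 change was -0.93 (-0.44 as deposited, where 15 fell and 3 rose). Klf1, the master factor of red cell development, stood at 21.4, 17.5 and 77.6 rescaled TPM in floxed controls and at 5.49, 7.36 and 4.82 in knockouts (log2 change -2.23, SE 0.45, adjusted p = 0.0244). Car1, a carbonic anhydrase of early red cells, stood at 15.4, 19.1 and 92.3 against 2.35, 5.65 and 1.94 (log2 change -2.96, SE 0.58, adjusted p = 0.0222). Hba-a1, an alpha globin gene whose near-identical copy Hba-a2 can share its reads, stood at 34.1, 42.0 and 48.2 against 8.77, 19.4 and 6.91 (log2 change -1.85, SE 0.31, adjusted p = 0.0151). Floxed control 3 was the highest control for 19 of the 20 genes. After rescaling, controls 1 and 2 also lay above the knockouts for Klf1, Car1 and Hba-a1. As deposited, Hba-a1 stood at 25.9 TPM in control 2 and at 26.7 TPM in knockout 2. Without floxed control 3, 18 of the 20 passed. Without knockout 2, 7 passed, and without knockout 3 or in the LT-HSC libraries alone none (limma, adjusted p = 0.0695 to 0.143 in the latter). The regulators Gata1 (7.67, 6.69 and 22.4 against 3.80, 6.72 and 4.76 rescaled TPM, adjusted p = 0.0994) and Epor (8.54, 7.82 and 28.5 against 7.40, 7.73 and 7.74, adjusted p = 0.257) did not pass.

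Lymphoid priming genes, the low-level transcripts by which progenitors lean towards lymphocytes, included 4 that fell and 1 that rose of 22 tested (median 0). Flt3, the cytokine receptor of MPP, stood at 6.91, 4.11 and 4.94 against 1.93, 2.64 and 1.37 rescaled TPM (log2 change -1.08, adjusted p = 0.0167). The lymphotoxin gene Ltb fell by 1.20 (adjusted p = 0.0151), and the lymphoid factor genes Ikzf1 and Satb1 by 0.83 and 0.64. Il12a rose by 0.68 (adjusted p = 0.0269). None of the 5 calls stood without knockout 3 or in the LT-HSC libraries alone, and 2 stood on the deposited scale.

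Among genes that mark the stem cell state some rose. Of 35 stem cell identity genes tested 8 rose and 0 fell on the rescaled scale, with a median log2 change of 0.26, and all 8 rose as deposited. Clca3a1, a surface protein gene of LT-HSC and vessel cells, stood at 14.6, 17.6 and 18.8 rescaled TPM in floxed controls and at 48.7, 45.5 and 77.4 in knockouts (log2 change 1.66, SE 0.19, adjusted p = 0.00227). Neo1, which encodes the netrin receptor neogenin, stood at 6.51, 6.72 and 2.88 against 17.2, 11.1 and 18.5 (log2 change 1.42, SE 0.25, adjusted p = 0.0167). Hoxb5, a homeobox gene largely confined to LT-HSC, stood at 2.67, 1.53 and 1.15 against 5.34, 4.44 and 7.16 (log2 change 1.28, adjusted p = 0.0148). Its neighbour in the cluster, Hoxb6, stood at 1.57, 1.03 and 1.11 against 4.00, 3.99 and 8.34 and is in the 19-gene set (log2 change 1.47, SE 0.22, adjusted p = 0.0105). Outside the LT-HSC knockouts Hoxb6 reached 1 TPM in floxed control 1 alone and Hoxb5 in floxed controls 1 and 3 alone. Both entered the test through the group where they are high, so their p-values support nothing beyond these values. Vwf, the clotting protein gene of platelet-biased stem cells, stood at 53.5, 50.6 and 35.4 against 97.8, 74.7 and 102 (log2 change 0.97, adjusted p = 0.0312). Of the 8 calls 5 stood without knockout 2 and 1 (Clca3a1) without knockout 3, and 1 stood in the LT-HSC libraries alone.

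A few granule and myeloid genes rose. Of 29 myeloid priming genes tested 3 rose and 0 fell (median 0.42), of 15 mature neutrophil genes 1 rose (median 1.14) and of 14 eosinophil, basophil and mast cell genes 2 rose (median 0.52). Of all genes tested 2.54% rose. Prg2, the major basic protein of eosinophil granules, stood at 0.350, 1.05 and 0.225 rescaled TPM in floxed controls and at 24.8, 7.58 and 29.3 in knockouts (log2 change 3.65, SE 0.54, adjusted p = 0.00904). Hdc, the histamine-making enzyme of basophils and mast cells, rose by 0.87 (adjusted p = 0.0349). Wfdc17, a secreted inhibitor gene of phagocytes, stood at 10.2, 4.60 and 6.08 against 19.1, 18.6 and 30.2 (log2 change 1.6, adjusted p = 0.0154). S100a8, a calprotectin gene of neutrophils, stood at 15.9, 38.6 and 31.0 against 52.4, 118 and 438 rescaled TPM and did not pass (adjusted p = 0.0788). Every knockout exceeded every control for S100a8, and knockout 3 stood far above the others. The neutrophil marker sums given above follow the same order, but they contain S100a8 itself and so add no support. The progenitor genes Hk3, Gfi1 and Plac8 rose by 1.31, 1.04 and 0.84. Hk3, a hexokinase of myeloid cells, stood at 7.45, 8.85 and 4.94 against 16.2, 15.5 and 25.3. All 6 calls of these lists were lost without knockout 3. Gfi1 also lost its call without knockout 2, Hdc without knockout 2 or floxed control 1 or 2, and Plac8 without knockout 2 or any floxed control. In the LT-HSC libraries alone Prg2 was the 1 of the 6 that passed. Tgfbi, a matrix protein gene of monocytes, held in every fit without 1 library, at 6.83, 6.89 and 4.14 against 24.7, 16.2 and 26.4 rescaled TPM (log2 change 1.75, SE 0.22, adjusted p = 0.00279). So did Ffar2, a receptor for short-chain fatty acids on neutrophils, at 2.06, 1.16 and 1.5 against 6.55, 5.26 and 7.19 (log2 change 1.52, SE 0.17, adjusted p = 0.00199).

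Some rises were of genes best known outside the blood. Sva (chromosome 6, 42038394 to 42042851), a seminal vesicle secretory gene, was listed at 0 in all 3 floxed controls and at 9.57, 16.4 and 15.3 TPM in knockouts (8.99, 11.9 and 11.9 rescaled, adjusted p = 1.1e-07). The odorant receptor genes Olfr632 (chromosome 7, 103937382 to 103938335) and its neighbour Olfr631 rose together. Olfr632 stood at 1.19, 2.06 and 1.72 against 8.47, 9.92 and 13.0 rescaled TPM (log2 change 2.10, SE 0.18, adjusted p = 2.4e-04), and Olfr631 at 0.487, 0.874 and 0.821 against 3.85, 4.28 and 8.03 (log2 change 1.84, adjusted p = 0.00227). Sva and Olfr631 reached 1 TPM in knockout libraries only, so they entered the test through the group where they are high, and their p-values support nothing beyond the levels given. Olfr632 and Olfr631 lie beside the beta globin cluster in mouse. The predicted gene Gm16587 stood at 2.15, 1.85 and 1.17 against 6.67, 8.14 and 13.2 (log2 change 1.89, adjusted p = 0.00341), and Gm15344 fell from 19.8, 32.7 and 23.2 to 8.43, 5.78 and 8.12 rescaled TPM (log2 change -1.62, adjusted p = 0.00334).

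Of 46 interferon response genes tested 6 rose and 1 fell (median 0.18), against 2.54% and 2.16% of all genes tested. The 6 include 4 genes of the oligoadenylate synthetase family, sensors of double-stranded RNA. Oas2 stood at 1.52, 3.17 and 3.15 against 6.21, 11.5 and 8.73 rescaled TPM (log2 change 1.44, SE 0.25, adjusted p = 0.0161), and Oas3 rose by 0.50 (adjusted p = 0.0451). On the deposited scale 6 of the 7 passed, and none without knockout 2 or knockout 3 or in the LT-HSC libraries alone. Oas3 lost its call in each of the 6 fits.

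Some genes of growth and division passed the test, by which 2.16% of all genes tested fell. Of 40 genes of DNA replication and S phase 4 fell (median -0.35), with 17 at an unadjusted limma p under 0.05. Of 38 Myc targets and ribosome biogenesis genes 4 fell (median -0.47), with 24 at such a p, against 27.0% of all genes tested. Of 38 genes of G2 and M phase (median -0.40) and 40 ribosomal protein genes (median -0.30) none passed, with 10 and 5 at such a p. After rescaling 36 of the 40 S phase genes, 33 of the 38 Myc targets and every gene of the latter lists lay below 0. As deposited these medians were 0.25, 0.14, 0.17 and 0.32, all above 0 and below the 0.52 of all genes. Highly expressed genes lay lower as a class: the median rescaled log2 change was 0.20 for genes under 1 rescaled TPM, -0.09 at 10 to 100 and -0.34 for the 100 genes of the highest class. Myc stood at 129, 98.6 and 121 against 94.8, 101 and 90.6 rescaled TPM, and the groups overlapped (log2 change -0.28, adjusted p = 0.289, and 0.34 as deposited). Cdk6, the kinase that speeds exit from rest, rose by 0.72 (adjusted p = 0.0450), and Tob1, an inhibitor of proliferation, fell by 0.80 (adjusted p = 0.0363). The 8 S phase and Myc target calls, like those of Cdk6 and Tob1, were lost without knockout 2 or knockout 3 and in the LT-HSC libraries alone.

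Of 22 glycolysis genes 2 rose, Hk3 and Hk2, and 2 fell, Hk1 and Pfkm. The hexokinase genes, which encode the first step of glucose use, did not all move one way: Hk2 stood at 33.3, 23.1 and 23.5 against 54.9, 46.1 and 46.0 rescaled TPM (log2 change 0.87, adjusted p = 0.0147), and Hk1 at 37.6, 58.2 and 49.6 against 32.0, 30.9 and 29.1 (-0.62, adjusted p = 0.0393, and -0.02 as deposited). The Hk2 and Hk3 calls were lost without knockout 3, and those of Hk1 and Pfkm without floxed control 2 or 3 and without knockout 2 or 3. Of 42 nuclear genes of oxidative phosphorylation 1 fell (median -0.32), where 2.16% of all genes tested fell and 2.54% rose. Of 18 clock genes 1 fell, Per2 (log2 change -0.97, adjusted p = 0.0145), of 30 adhesion and homing genes 5 rose and 3 fell (median -0.03), of 23 megakaryocyte genes 3 rose and 1 fell (median 0.02), and of 22 p53 targets none passed (limma, 4 at an unadjusted p under 0.05, median -0.02). Without knockout 3 the clock and megakaryocyte calls were lost and 1 adhesion gene, Cd69, passed.

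**Figure D3:**
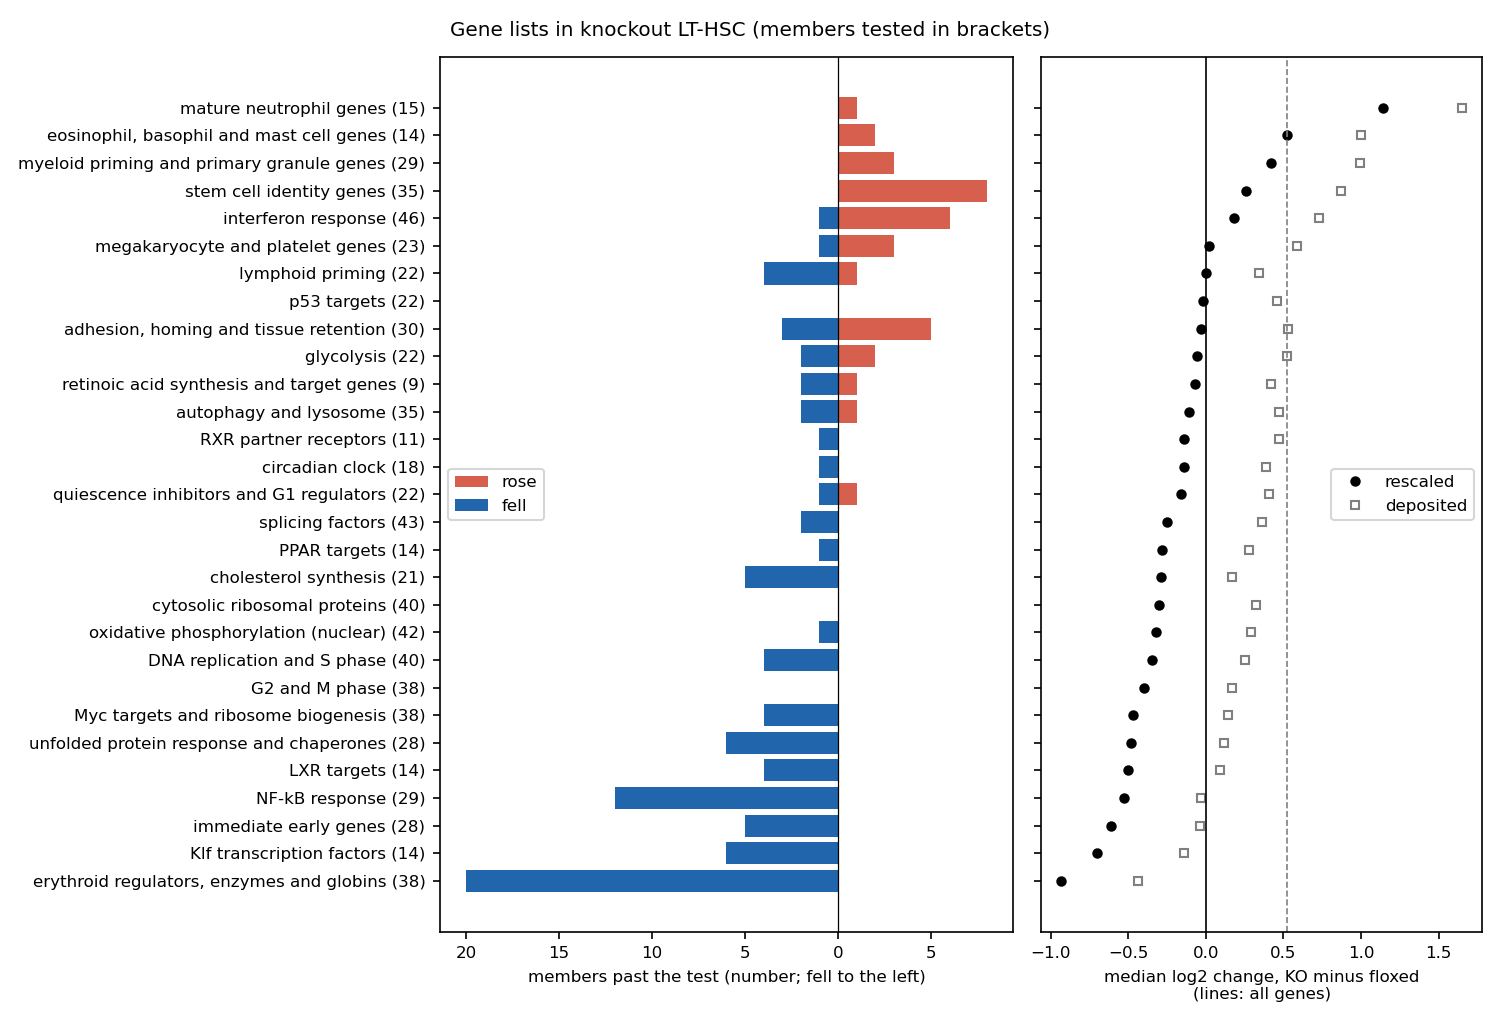
Left, members of each list past the test in knockout LT-HSC (right of 0: rose, left: fell, members tested in brackets), and right, the median log2 change of the list, rescaled (filled) and as deposited (open), with lines for all genes. Erythroid genes have the most falls (20 of 38) and the lowest median (-0.93), and mature neutrophil genes have the highest median (1.14) with 1 member past the test.

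Splicing was compared as percent spliced in (PSI), the share of reads on 1 junction among competing ones. Of 39710 events tested 53 in 40 genes were called (0.133%, with 9.06% at an unadjusted p under 0.05), at an adjusted p under 0.05 with mean PSI apart by 0.1 or more, and 51 of these were intron retention events. Of the 49 with a readable direction, 43 in 33 genes showed more retained intron in knockouts and 6 in 4 genes less. The direction ran through the whole table: 15512 of 22682 tested retention events were higher in knockouts (68.4%) and 7165 lower, with a median change of 0.0474. These counts of events hold some introns more than once, as a junction and its reverse (Arl5b, Mknk1 and Nfkb2 among those called). Events of the same intron are not independent. Mean retention over 23261 events was 10.7%, 11.6% and 14.1% in floxed controls and 14.0%, 17.7% and 18.4% in knockouts, so that knockout 1 lay within the control range. In MPP it was 18.7%, 18.4% and 14.3% in floxed controls and 12.7%, 16.8% and 16.8% in knockouts, where the groups overlapped.

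**Figure D4:**
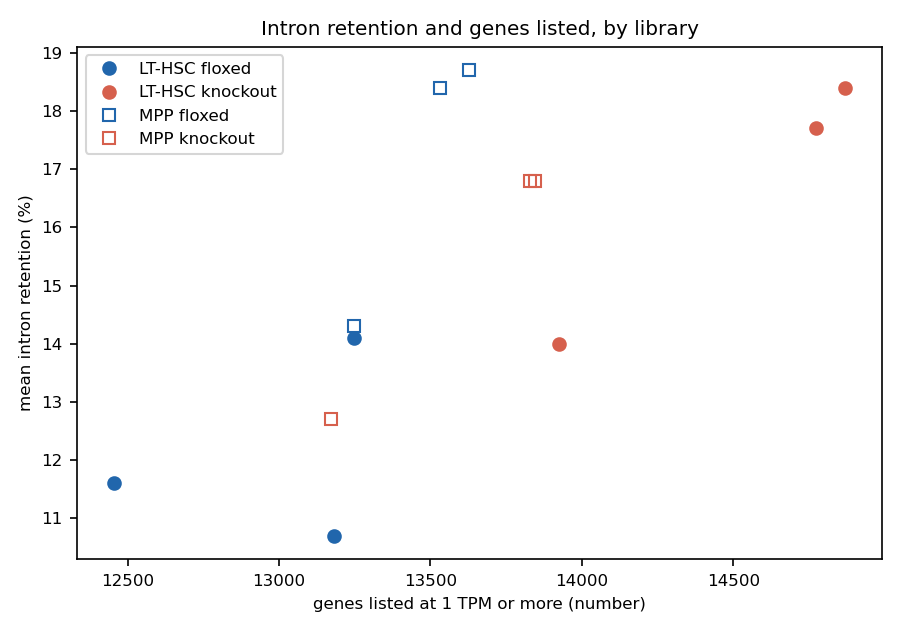
Mean intron retention (%) against the number of genes listed at 1 TPM or more, 1 point per batch 1 library (filled: LT-HSC, open: MPP, blue: floxed, red: knockout). LT-HSC knockouts 2 and 3 list the most genes (14774 and 14870) and have the highest retention of the LT-HSC libraries (17.7% and 18.4%).

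Of the 12 genes with the largest differences, Arl5b and Taok2 had less retention in knockouts, Apc changed at a cassette exon and the other 9 had more retention. Usp20, a deubiquitinase gene, had its intron at chromosome 2, 31011496 to 31011623, spliced in every read of the floxed controls (PSI 1, 1 and 1) and in a share of 0.2, 0.318 and 0.0952 in knockouts (adjusted p = 0.0361). Mknk1, a kinase of the translation factor eIF4E, had PSI 1 in the controls and 0.357, 0.385 and 0.262 in knockouts for the junction at chromosome 4, 115864612 to 115866462, and Carm1, an arginine methyltransferase that acts with nuclear receptors, had 1 against 0.458, 0.447 and 0.274. Nfkb2 went the other way: its junction at chromosome 19, 46307718 to 46307956, stood at 0.540, 0.570 and 0.488 in controls and at 1 in each knockout (adjusted p = 0.0366), and it was the only one of the 40 genes whose TPM also passed. In MPP knockouts 1 to 3 the Usp20 junction stood at 1, 1 and 0.261 and that of Mknk1 at 1 in each. For Carm1 floxed MPP had 0.694, 0.773 and 0.876 and the knockouts 1, 0.574 and 0.61. For Nfkb2 these groups had 0.172, 0.224 and 0.3, and 0.222, 0.55 and 0.37. In batch 2 the only labelled knockout with a value had 1 for Usp20 and for Mknk1. Carm1 had 1, 1 and 0.746 in labelled knockouts, and Nfkb2 had 1 in every Cre control and labelled knockout. Of the 53 events 36 sat at a PSI of 0 or 1 in all 3 controls, and the read numbers behind them are unknown. The calls did not stand up to leaving out a library: 0 events passed without floxed control 1, 2 or 3, knockout 2 or knockout 3, with 2960 to 3526 events at an unadjusted limma p under 0.05 in these fits, and 222 passed without knockout 1. Of the splicing factor genes 2 of 43 fell, U2af2 (log2 change -0.50, adjusted p = 0.0289) and Sf3a2 (-0.57, adjusted p = 0.0356), against 2.16% of all genes tested that fell. Both lost their calls without floxed control 2, knockout 2 or knockout 3, Sf3a2 also without floxed control 1, and on the deposited scale neither passed (U2af2 at 0.10).

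In MPP of the same batch 86 of 14839 genes passed (0.58%), among them 11 of the 19 genes, Sva included. The library names number LT-HSC and MPP alike, as if sorted from the same pools. Deviations from the group mean of same-numbered LT-HSC and MPP libraries correlated at 0.55, 0.16 and 0.28 in knockouts. In floxed controls they correlated at 0.08, 0.05 and 0.08. The MPP values may therefore not be an independent repeat, and the fit used no block for pools. Cd69 fell by 1.88 (adjusted p = 0.00445), Nfkbia by 1.71 (2.3e-04), Nfkbid by 1.43 (0.00298), Mylip by 1.23 (0.0173) and Sqstm1 by 1.16 (0.00476) in MPP. Sva was again listed at 0 in floxed MPP 1 and 2, at 0.164 TPM in floxed MPP 3 and at 9.13, 13.2 and 11 TPM in the knockouts, and Ffar2 rose by 1.14 (adjusted p = 0.00908). The difference between the cell types was tested directly and passed for 4 genes (0.027%). Gda fell in LT-HSC, and its log2 change in MPP was 0.63 (difference -3.50, SE 0.48, adjusted p = 0.0344). In floxed MPP it stood at 0.433, 0.488 and 1.3 rescaled TPM, a level that left almost no room for a fall. Olfr632 rose in LT-HSC, with a change of 0.09 in MPP (difference 2.02, adjusted p = 0.0344). It was nearly absent from MPP, at 0 TPM in each floxed library and at 0.0269, 0 and 0.179 TPM in knockouts. The predicted gene Gm11011 rose in LT-HSC and fell in MPP (difference 2.16). Cd83, a surface protein gene of dendritic cells, fell by 1.81 in MPP and had a mean of 0.224 rescaled TPM in floxed LT-HSC and 0.111 in knockouts (difference 1.67). Cd83 reached 1 TPM in the floxed MPP libraries (3.87, 3.46 and 2.85 TPM) and in no other library of the fit. It thus entered the test through the group where it is high, and its p supports nothing beyond these values. These 4 calls were lost in most fits without 1 library: 0 stood without LT-HSC floxed control 1 or 2, LT-HSC knockout 2 or any MPP library, 1 without LT-HSC knockout 1 or 3, and 3 of 8 genes without LT-HSC floxed control 3. Neither Klf9 (MPP change -0.91, difference -1.08, adjusted p = 0.237) nor Dhrs3 (0.35, difference 0.85, adjusted p = 0.26) was shown to differ between cell types.

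Batch 2 holds LT-HSC with the same knockout label and Cre-carrying controls, where 30 of 14492 genes passed (0.207%). None of the 19 genes did (limma, 3 at an unadjusted p under 0.05). Its libraries labelled knockout had Klf9 at a mean of 14.0 rescaled TPM against 13.7 in Cre controls, where batch 1 had 3.92 in knockouts and 17.9 in floxed controls on that common scale. The difference between the batches passed for 18 of 14492 genes (0.124%), for 122 without the batch 2 library labelled knockout 6, 35 without knockout 1, 11 without knockout 2, 10 without knockout 3 and 11 without Cre control 4. For Klf9 it was -1.96 (SE 0.27, adjusted p = 0.00838), for Sqstm1 -1.33 (0.0321) and for Gm15344 -3.74 (0.0220). For Prg2 it was 4.24, and for Sva, listed at 0 in all 6 of these batch 2 libraries, 3.55. In this fit Sva reached 1 TPM in the batch 1 knockouts alone, and Prg2 there and in Cre control 4. Both entered the test through the group where they are high, so their p-values support nothing beyond these values. The test of this difference did not pass for Cd69 (difference -1.38, adjusted p = 0.477), Nfkbia (-1.25, 0.211), Mylip (-1.14, 0.227) or Gda (-2.54, 0.172). Batch, control genotype and the presence of Cre in the controls change together, so that they cannot be told apart. Kdm5d, a sex-linked gene, stood at 0 TPM in every batch 2 library labelled knockout. It stood at 1.42, 1.88 and 7.56 TPM in Cre controls 4 to 6 and at 4.19 to 6.67 TPM in batch 1 LT-HSC. Ddx3y was also lowest in those batch 2 knockouts (0.0173 to 0.176 TPM), while Uty overlapped the Cre controls (1.79 to 3.47 against 2.58 TPM or more). Sex may thus differ between the batch 2 groups, and its part was not tested.

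**Figure D5:**
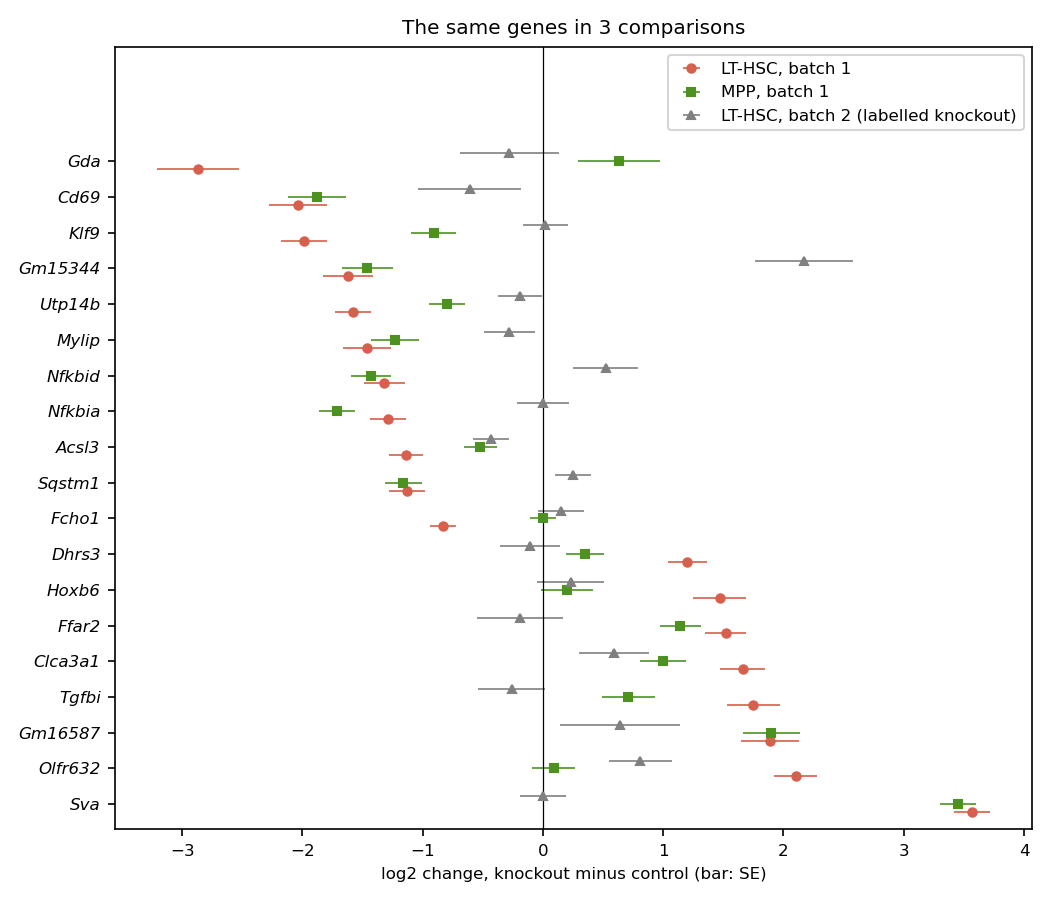
Log2 change, knockout minus control, with its SE for the 19 genes in LT-HSC of batch 1 (circles), MPP of batch 1 (squares) and LT-HSC of batch 2 (triangles). In MPP 11 of the 19 pass and in batch 2 none, with Gda and Olfr632 close to 0 or opposite in MPP and Cd69, Nfkbia, Mylip and Sva alike in both cell types of batch 1.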

How the data were processed

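RNA of sorted LT-HSC and MPP was amplified from 5 ng of total RNA per library, per the labels' protocols. The TPM per Ensembl gene are the authors' deposited values, made with kallisto on mm10 per the submitters' processing notes. The PSI are deposited fractions, and the notes name STAR 2.6, while no source used here names the event caller or a read minimum. The 28987 gene identifiers carried a symbol for 94.73%. Genes at 1 TPM or more in at least 3 of the 12 batch 1 libraries were fitted with limma 3.58.1 (R 4.3.3, intensity trend) on log2(rescaled TPM + 1), which understates changes of low genes, and called at a Benjamini-Hochberg adjusted p under 0.05 over all genes. The rescaled TPM and all log2 changes were computed here from the deposited TPM. PSI were fitted over the 6 LT-HSC libraries for events with a value in all. Interactions tested differences between cell types and between batches. Fits were tested on simulated data.

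The members, the gene lists and the tests were chosen with earlier results of these data known. The genes named are Rxra and Rxrb, large changes that pass on both scales without overlap and with a higher group mean of at least 5 rescaled TPM, up to 4 members per list by smallest p, genes at 0 in 1 group and at 2 TPM or more in the other, and the largest interactions and splicing events. The set of 19 genes, and the further list members named, were chosen after their values were seen. Replicate numbers do not pair floxed controls and knockouts: the deviations of same-numbered libraries correlated at 0.28, 0.08 and -0.04. Promoter sequences and gene positions are from RefSeq tables (GRCm38.p6). Repeats of AGGTCA with 1 or 4 bases between them were also searched, and no LXR or PPAR target with a promoter entry held either. They occur in 13 and 5 of 32851 windows. Alternatives were the scale, pseudocount, filter, block, variance model and leaving out each library. Figures were drawn with matplotlib 3.10.9. Values of 2 members of the cholesterol list are not reported here.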

Additional observations from a re-analysis of the deposited data

Results flagged for a closer look

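Between LT-HSC and MPP the knockout effect differed by a test of the interaction (limma) for Cd83 by 1.67, Gda by -3.50, Olfr632 by 2.02 and Gm11011 by 2.16 on the log2 scale, LT-HSC minus MPP. Cd83 entered this test through floxed MPP alone, the group where it is high.

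Between batch 1 and batch 2 LT-HSC it differed for 6 genes in which the batch 1 effect was the higher, namely Gm13841 by 8.55, Rps3a3 by 7.35, Rps3a2 by 7.01, Gm8730 by 5.00, Eno1b by 4.55 and Prg2 by 4.24. In the first 5 the Cre controls of batch 2 stood at means of 29.0 to 672 rescaled TPM and every other group at 3.33 or less. Rps3a2, Rps3a3 and Eno1b resemble other gene copies, so their reads may be split uncertainly. Sva differed by 3.55. In this fit Eno1b reached 1 TPM in the Cre controls alone, and Gm13841 there and in knockout 2. Sva reached it in the batch 1 knockouts alone, and Prg2 there and in Cre control 4. All entered the test through the group where they are high. The batch 1 effect was the lower for Gm13443 by -4.83, Gm15344 by -3.74, Gm17024 by -2.78, A930015D03Rik by -2.19, Klf9 by -1.96, Med29 by -1.90 and Sqstm1 by -1.33.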

How the results depend on the processing

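The count of 698 genes in knockout LT-HSC became 6700 on deposited TPM, 2000 without the most abundant identifier, 285 without a filter on low values and 30 with the LT-HSC libraries alone, and ranged from 21 (without knockout 3) to 1630 (without knockout 1) when 1 library was left out. With the replicate block by label number it was 964. Floxed control 1 correlated best with its own number, floxed controls 2 and 3 did not.

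The 4 genes that differed between LT-HSC and MPP became 12 on deposited TPM, 7 with a pseudocount of 5 or without a filter, and 15 with a random block by pool name. They became 0 without the most abundant identifier, with a pseudocount of 0.1, with a filter at 5 TPM and under the replicate block, with 1242 to 2061 genes at an unadjusted limma p under 0.05 in these fits. Leaving out 1 library gave 0 to 8. The 18 genes that differed between batches became 184 on deposited TPM and 40 without a filter, and 10 to 122 without 1 library.

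The 53 splicing events became 652 on the logit of PSI and 0 under the replicate block or without retention events, with 3376 and 1100 at an unadjusted limma p under 0.05, and 0 to 222 without 1 library. A fit over the 12 libraries of batch 1 gave 50 events, of which 9 were among the 53. The difference in Rxra TPM of -0.66 ranged from -1.38 to 0.0227, the latter without floxed control 1.

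On deposited TPM the log2 change was above 0 for Cyp51 (0.01), Fos (0.35), Myc (0.34), Pfkm (0.13), Rara (0.31), Tnip1 (0.07), U2af2 (0.10) and Xbp1 (0.14), all below 0 after rescaling. Fos lay at 0.08 with quantile scaling, and Fos, Myc and Rara at 0.03, 0.02 and 0.05 without the most abundant identifier. Aldh1a1 ranged from -0.11 to 0.18 without 1 library, and was -0.01 without floxed control 3. Of 76 called genes named, 43 kept their call on deposited TPM, 69 with quantile scaling, 75 with a pseudocount of 0.1 and 19 of 75 without knockout 3. The cause of these shifts was not tested. Read depth is unknown, so the precision of low values cannot be given.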
